A study of Mus musculus with 10 samples.

Results

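Protocadherins are the largest branch of the cadherin family, and their mRNA was followed here in mouse cortical cultures that had received Gata1 or a control. The members were all rows of the mRNA tables whose symbol begins with Pcdh, and they numbered 36 of 40904 gene symbols. They comprised 1 row of the alpha cluster, 22 rows of the beta cluster, 1 row of the gamma cluster and 12 nonclustered genes. One culture received AAV-Gata1, an adeno-associated virus carrying the zinc finger transcription factor gene Gata1, and the other received AAV-Control. Both came from cortex of ICR embryos at embryonic day 14 and were harvested after 11 days in vitro. Each condition had 1 poly(A) RNA library, so no difference given here was tested and none has a replicate check. The labels give neither the promoter driving Gata1 nor the virus dose, and the labels name no step that sorted the cells. Of the series' 10 samples, the 8 others (small RNA, histone mark and input DNA libraries) were not analysed here.

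Protocadherins are single-pass membrane proteins with extracellular cadherin repeats, which in many members, though not in all, bind the same protein on another cell. In the alpha and gamma clusters, many variable first exons, each with its own promoter, are spliced to a shared set of constant exons, whereas each beta gene is a single exon with no constant part. Individual neurons use a few of these promoters, and the resulting combination of surface proteins lets a neuron tell its own branches from those of its neighbours. Nonclustered protocadherins stand as separate genes. They are grouped into delta1 and delta2 by their repeats and cytoplasmic motifs, and act in axon growth, synapse formation and cell sorting.

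The unit of every level below is FPKM, fragments mapped to a gene scaled by transcript length and by library size, which is a level per length. Summed over all named rows, the libraries held 476656 FPKM (AAV-Gata1) and 476198 FPKM (AAV-Control). Gata1 was listed at 2.07 FPKM in the AAV-Gata1 library and at 0 in the AAV-Control library, which goes the way of the labels. Markers of neurons, astrocytes, microglia and the oligodendrocyte lineage were all present. Of the marker genes compared, 10 of 11 pan-neuronal and 6 of 7 excitatory markers were lower in the AAV-Gata1 library. So were 7 of 9 oligodendrocyte lineage and 3 of 3 pericyte and fibroblast markers, where 54.7% of all genes compared were lower. The pericyte and fibroblast list held 7 genes. Of its 3 compared, Pdgfrb was nearly level, at 13.57 FPKM with Gata1 and 13.60 FPKM with the control virus. All 10 microglia markers compared were higher. The full list of 12 microglia markers summed to 529 FPKM in the AAV-Gata1 library and 450 FPKM in the AAV-Control library. Inhibitory neuron (3 of 7 lower), astrocyte (5 of 9) and progenitor markers (4 of 8) were divided. In bulk RNA, fewer cells of a type and less RNA per cell cannot be told apart.

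The clusters were not resolved alike. RefSeq lists 14 alpha and 22 gamma genes, and the tables held 1 row for each cluster, under the symbols Pcdha10 and Pcdhga12. All 22 beta and 12 nonclustered genes of RefSeq had a row of their own. Whether the Pcdha10 and Pcdhga12 rows hold fragments of 1 gene or of a whole cluster, constant exons included, is stated neither in the labels nor in the tables. Their levels therefore cannot be assigned to a promoter, and no C-type member (the isoforms nearest the constant exons) has a value.

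The gamma row was the most abundant protocadherin entry. Pcdhga12 stood at 177 FPKM in the AAV-Gata1 library and 184 FPKM in the AAV-Control library, above 97.3% of all genes compared in mean level. It made up 43.8% of the summed protocadherin FPKM in the AAV-Gata1 library and 44.0% in the AAV-Control library. As the gamma and alpha rows may each hold 1 gene or a whole cluster, their shares and ranks are those of rows, not of genes. The alpha row, Pcdha10, stood at 37.4 FPKM with Gata1 and 38.1 FPKM with the control virus, the third highest of the members. The AAV-Gata1 value was slightly below the control value in both rows, at FPKM ratios of 0.962 for Pcdhga12 and 0.983 for Pcdha10.

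**Figure D1:**
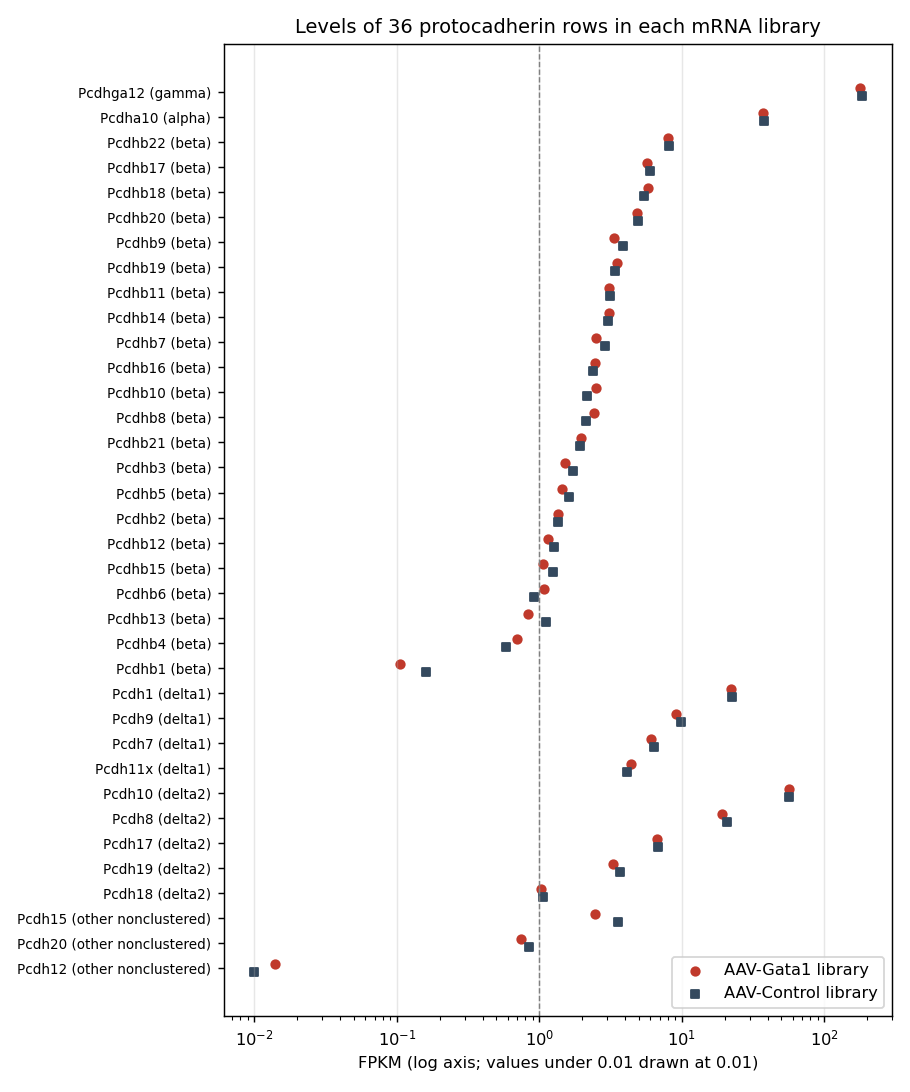
Level of each of the 36 protocadherin rows in FPKM (log axis), grouped by class, with a circle for the AAV-Gata1 library and a square for the AAV-Control library, 1 library each. The pairs lie close together for nearly all rows. Pcdhga12 (177 FPKM with Gata1, 184 FPKM with the control virus) is the highest row, and may hold 1 gene or a whole cluster. Pcdh15 (2.46 FPKM with Gata1, 3.59 FPKM with the control virus) is the widest pair above the dashed line at 1 FPKM.

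Beta protocadherins were expressed at low levels, with a gradient along their array. The beta genes lie side by side on chromosome 18 and are numbered in that order. Their levels ran between 0.105 and 7.99 FPKM in the AAV-Gata1 library and between 0.159 and 8.11 FPKM in the AAV-Control library, with medians of 2.44 FPKM with Gata1 and 2.14 FPKM with the control virus. All 22 together summed to 58.6 FPKM in the AAV-Gata1 library and 59.4 FPKM in the AAV-Control library.

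Highest among the beta genes was Pcdhb22, the last of the array, at 7.99 FPKM with Gata1 and 8.11 FPKM with the control virus. Pcdhb17 followed at 5.75 FPKM with Gata1 and 6.00 FPKM with the control virus, and Pcdhb18 at 5.82 FPKM with Gata1 and 5.39 FPKM with the control virus. Pcdhb20 stood at 4.88 FPKM with Gata1 and 4.95 FPKM with the control virus. The highest 4 beta genes were thus the same in both libraries and all lie in the last 6 places. Pcdhb9 was next by mean level, at 3.37 FPKM with Gata1 and 3.85 FPKM with the control virus, and Pcdhb1, the first of the array, was lowest at 0.105 FPKM with Gata1 and 0.159 FPKM with the control virus.

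The last 11 beta genes had a median of 3.10 FPKM in the AAV-Gata1 library and 3.04 FPKM in the AAV-Control library, while the first 11 had medians of 1.53 FPKM with Gata1 and 1.73 FPKM with the control virus. Across the 22 genes, Spearman's rho of level with place in the array was 0.639 in the AAV-Gata1 library and 0.648 in the AAV-Control library. These values describe genes that share a library and closely similar sequence, and are not independent points. Pcdhb12, Pcdhb13 and Pcdhb15 (0.839 to 1.15 FPKM with Gata1, 1.11 to 1.26 FPKM with the control virus) broke the gradient in both libraries, as did Pcdhb21, next to last, at 1.95 FPKM with Gata1 and 1.93 FPKM with the control virus. Beta genes are near-identical over long stretches, so fragments can be assigned to a neighbour and single values carry that uncertainty.

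**Figure D2:**
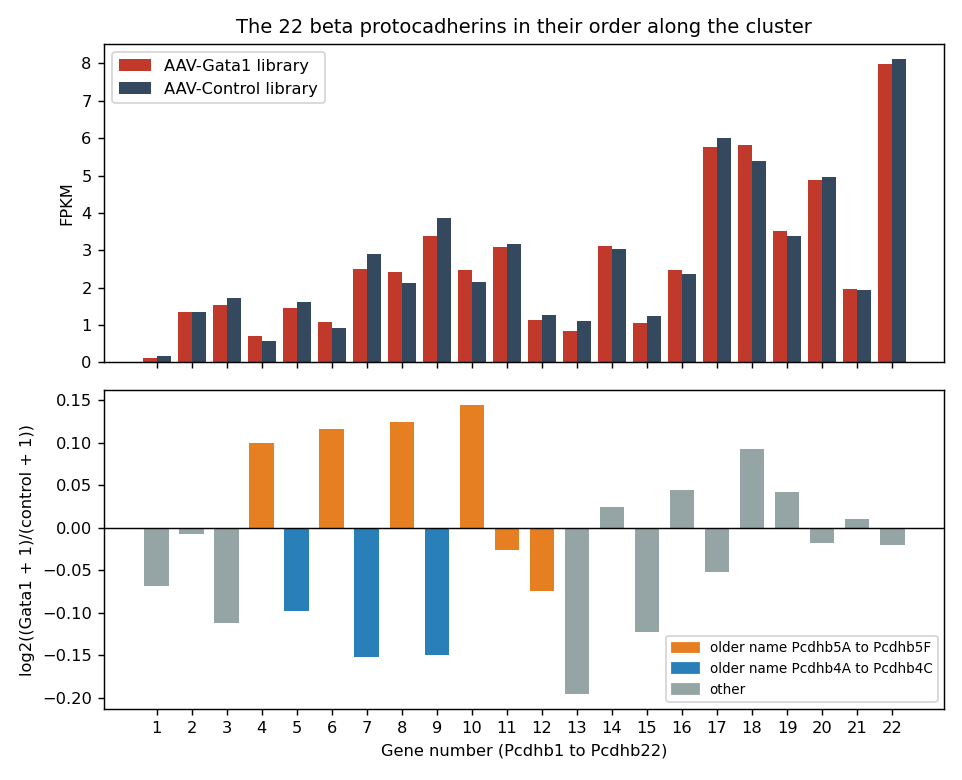
The 22 beta genes in array order, with their FPKM in the AAV-Gata1 (left bar) and AAV-Control (right bar) library above and log2((Gata1 + 1)/(control + 1)) below, 1 library each. Levels are highest towards Pcdhb22 in both libraries, and the difference alternates in sign from gene to gene between Pcdhb4 and Pcdhb10 (coloured by older RefSeq names), between Pcdhb13 and Pcdhb18 and between Pcdhb19 and Pcdhb22 (grey, without those names).

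Among the nonclustered genes, the delta2 member Pcdh10 was by far the most abundant. Pcdh10, which recruits actin regulators and takes part in axon growth and synapse elimination, stood at 56.4 FPKM in the AAV-Gata1 library and 56.9 FPKM in the AAV-Control library. Pcdh8, an activity-regulated delta2 member also known as arcadlin in rat, stood at 19.1 FPKM with Gata1 and 20.7 FPKM with the control virus. Pcdh17, a delta2 member of corticobasal ganglia synapses, stood at 6.70 FPKM with Gata1 and 6.86 FPKM with the control virus.

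Of the remaining delta2 genes, the X-linked Pcdh19, mutated in a human epilepsy that mainly affects females, stood at 3.29 FPKM with Gata1 and 3.70 FPKM with the control virus. Pcdh18 was near the limit of 1 FPKM, at 1.03 FPKM with Gata1 and 1.06 FPKM with the control virus. All 5 delta2 genes were thus a little lower in the AAV-Gata1 library, where 54.7% of all genes compared were lower. Their median log2 ratio was -0.031, beside -0.013 over all genes, and Pcdh10 (-0.014) lay close to the latter. The 5 genes summed to 86.5 FPKM in the AAV-Gata1 library and 89.3 FPKM in the AAV-Control library.

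Pcdh1 led the delta1 genes, at 22.3 FPKM in the AAV-Gata1 library and 22.6 FPKM in the AAV-Control library. Pcdh9, a broadly neuronal member, stood at 9.15 FPKM with Gata1 and 9.91 FPKM with the control virus, and Pcdh7 at 6.09 FPKM with Gata1 and 6.35 FPKM with the control virus. Pcdh11x, the X-linked delta1 member, was the only nonclustered gene at 1 FPKM or more that was higher in the AAV-Gata1 library, at 4.37 FPKM against 4.14 FPKM in the AAV-Control library. The 4 delta1 genes summed to 41.9 FPKM in the AAV-Gata1 library and 43.0 FPKM in the AAV-Control library.

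Outside the delta groups, Pcdh15, known from the tip links of inner ear hair cells and from oligodendrocyte precursors, stood at 2.46 FPKM in the AAV-Gata1 library and 3.59 FPKM in the AAV-Control library. Pcdh20 was under 1 FPKM in both, at 0.746 FPKM with Gata1 and 0.851 FPKM with the control virus. Pcdh12, an endothelial protocadherin, was listed at 0.0140 FPKM with Gata1 and at 0 with the control virus. Of 6 endothelial markers, Kdr stood at 2.20 FPKM with Gata1 and 2.44 FPKM with the control virus, and the 5 others were under 1 FPKM. Pecam1 was at 0.441 FPKM with Gata1 and 0.340 FPKM with the control virus, and Cdh5 was listed at 0 with Gata1 and at 0.00861 FPKM with the control virus.

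The factor delivered binds GATA sites, so the start regions of the nonclustered genes were read for such letters. RefSeq promoter windows (build GRCm38.p6) were at hand for 9 nonclustered members, in 10 windows, of which the 250 bases before the start were searched on both strands. Neither AGATAA nor TGATAA, longer forms that contain the core letters GATA, occurred in any of the 9 genes, while 16.6% of all 32851 windows hold at least 1. The core GATA, longer forms included, occurred in 4 of the 9 genes (Pcdh8, Pcdh9, Pcdh17 and Pcdh20), and in 53.6% of all windows. Longer forms other than AGATAA and TGATAA were not counted apart from the core. The letters TATAAA occurred in 2, Pcdh8 and Pcdh15, and in 12.4% of all windows. With 9 genes, counts this small are no result about the family beside those shares. A match is a description of letters and not a site, and a missing match says only that the letters are not in this window.

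The upstream windows of 3 genes are shown, because Pcdh15 had the widest difference, Pcdh10 the highest nonclustered level, and Pcdh8 both kinds of match. They are given 5′ to 3′ on the gene's own strand, with TATAAA and GATA (TATC where it reads on the other strand) in capitals. Pcdh15 is at chr10:73821617-73821866 (plus strand), Pcdh8 at chr14:79771313-79771562 (minus strand) and Pcdh10 at chr3:45378148-45378397 (plus strand).
Pcdh15: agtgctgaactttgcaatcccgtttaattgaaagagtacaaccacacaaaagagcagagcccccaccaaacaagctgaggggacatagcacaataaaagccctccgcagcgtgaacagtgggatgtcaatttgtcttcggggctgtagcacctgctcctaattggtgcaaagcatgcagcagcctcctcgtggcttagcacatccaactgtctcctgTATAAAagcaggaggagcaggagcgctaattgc
Pcdh8: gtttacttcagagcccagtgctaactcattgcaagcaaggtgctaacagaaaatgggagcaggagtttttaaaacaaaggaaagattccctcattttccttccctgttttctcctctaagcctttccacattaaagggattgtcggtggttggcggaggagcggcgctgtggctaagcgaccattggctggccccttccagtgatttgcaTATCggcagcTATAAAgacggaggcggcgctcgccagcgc
Pcdh10: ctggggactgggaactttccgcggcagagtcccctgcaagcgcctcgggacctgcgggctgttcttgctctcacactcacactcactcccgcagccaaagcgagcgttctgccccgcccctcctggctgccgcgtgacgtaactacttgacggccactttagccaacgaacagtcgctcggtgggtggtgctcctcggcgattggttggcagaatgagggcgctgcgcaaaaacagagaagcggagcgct
The Pcdh10 window is the richest of these in bases G and C (63.2%, with 22 CG pairs), above Pcdh8 (51.2%, 11 pairs) and Pcdh15 (50.4%, 6 pairs), beside medians of 52.4% and 6 pairs over all windows.

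Between the conditions the protocadherins differed little, and Pcdh15 was the only member compared that was 1.2-fold or more apart. Differences are log2 of (Gata1 + 1) over (control + 1), in FPKM, a scale that understates those of low genes. Only genes whose mean over both libraries reached 1 FPKM were compared, which held for 31 of the 36 members. The 5 others were Pcdhb1, Pcdhb4, Pcdhb13, Pcdh12 and Pcdh20. Of the 31, none was 2-fold apart. Among all 13740 genes compared, 0.233% were higher with Gata1 by 2-fold or more and 0.284% were lower by as much. None was higher by 1.2-fold or more, as 3.29% of all genes were, and 1 was lower by 1.2-fold or more, as 3.98% of all genes were. That 1 gene was Pcdh15. Most members lie at low levels, where genes scatter more: at a mean of 1 to 10 FPKM, 6.08% of genes were higher by 1.2-fold or more and 7.18% lower by as much, beside 0 and 1 of 26 protocadherins. With counts this small, a share near the background is no result about the family.

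The direction leaned to the lower side. In the AAV-Gata1 library 22 of the 31 members were lower and 9 higher, where 54.7% of all genes compared were lower. The median log2 ratio of the members was -0.024, beside -0.013 over all genes. By class, 11 of 19 beta genes were lower (median -0.018) and 9 of 10 nonclustered genes (median -0.042), and the single alpha and gamma rows were both lower (-0.024 and -0.055). The lower nonclustered genes stood beside lower pan-neuronal markers (10 of 11, median -0.081), which summed to 1029 FPKM in the AAV-Gata1 library and 1067 FPKM in the AAV-Control library, with none at 0; their part in this was not tested.

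**Figure D3:**
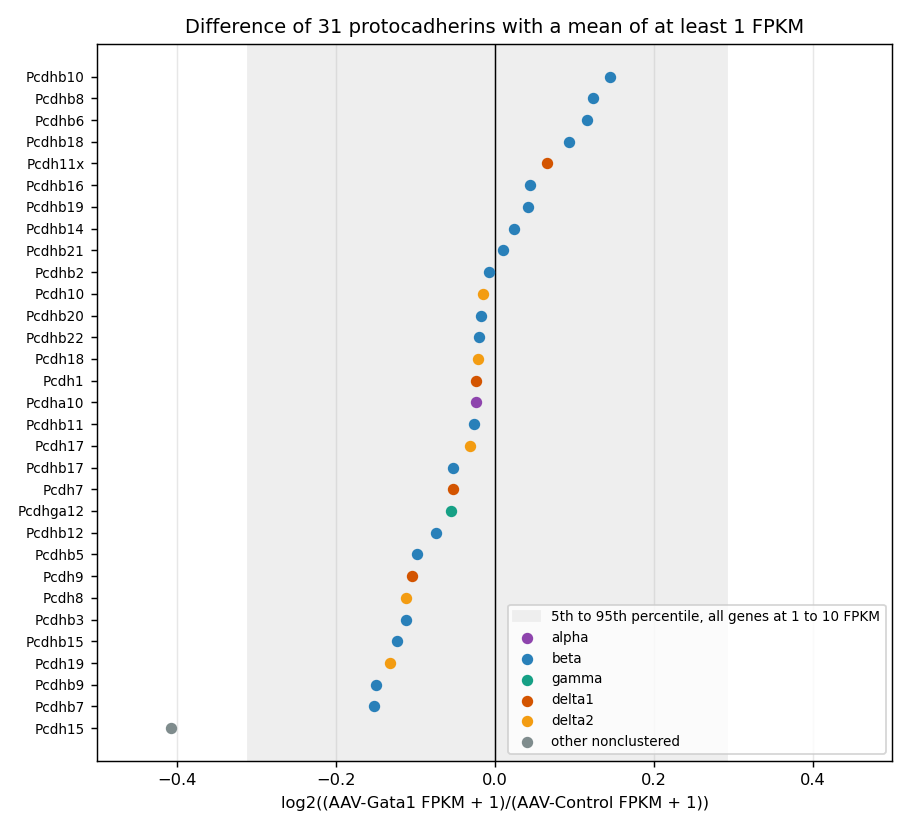
log2((AAV-Gata1 FPKM + 1)/(AAV-Control FPKM + 1)) of the 31 protocadherins with a mean of at least 1 FPKM, 1 point per gene, coloured by class. The grey band spans the 5th to the 95th percentile of all genes at 1 to 10 FPKM (-0.31 to 0.29), and Pcdh15, at -0.41, is the 1 protocadherin outside it.

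Pcdh15 had the largest difference of the family, at a log2 ratio of -0.41 and an FPKM ratio of 0.686. A lower log2 ratio was found for 1.46% of all genes compared, whatever their level. This share makes Pcdh15 look rarer than it is among genes of its own level, a mean of 3.03 FPKM. Genes at 1 to 10 FPKM spread wider, with a 5th percentile of -0.31, against -0.24 over all genes. Pcdh15 is also the most extreme of 31 members, picked for its size. RefSeq lists pseudogenes and a noncoding RNA gene overlapping Pcdh15, and the tables do not say how fragments there were assigned. After it came Pcdhb7, at 2.51 FPKM with Gata1 and 2.89 FPKM with the control virus (-0.15), and Pcdhb9 (-0.15). Pcdh19 (-0.13) and Pcdhb15, at 1.06 FPKM with Gata1 and 1.24 FPKM with the control virus (-0.12), completed the 5 lowest, all 4 within the 5th to 95th percentile of genes at 1 to 10 FPKM. Pcdhb13, just under the minimum at a mean of 0.973 FPKM, stood at 0.839 FPKM with Gata1 and 1.11 FPKM with the control virus.

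Of the 9 members higher in the AAV-Gata1 library, 8 were beta genes, which made up 19 of the 31 compared. The highest log2 ratio was that of Pcdhb10 (0.14), at 2.48 FPKM with Gata1 and 2.15 FPKM with the control virus. Pcdhb8 stood at 2.41 FPKM with Gata1 and 2.13 FPKM with the control virus (0.12). Pcdhb6, which just passed the minimum, stood at 1.08 FPKM with Gata1 and 0.921 FPKM with the control virus (0.12). Pcdhb18 (0.093) and Pcdh11x (0.065) followed. All 5 lie within the spread of genes at this level.

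Along the array, the sign of the beta differences often changed from gene to gene. Pcdhb4, Pcdhb6, Pcdhb8 and Pcdhb10 were all higher in the AAV-Gata1 library (log2 ratios of 0.099 to 0.14), and the genes between them, Pcdhb5, Pcdhb7 and Pcdhb9, were all lower (-0.15 to -0.098). The 4 higher genes summed to 6.67 FPKM with Gata1 and 5.79 FPKM with the control virus, and the 3 lower ones to 7.33 FPKM with Gata1 and 8.37 FPKM with the control virus. Summed over all 7 genes, the FPKM ratio of the AAV-Gata1 to the AAV-Control library was 0.989. Pcdhb4 is under the minimum mean of 1 FPKM. The older RefSeq names give the 4 higher genes as Pcdhb5A to Pcdhb5D and the other 3 as Pcdhb4A to Pcdhb4C. Pcdhb11 and Pcdhb12, once Pcdhb5E and Pcdhb5F, did not share the sign (-0.026 and -0.074). Signs also alternated in genes without those names, from Pcdhb13 to Pcdhb18 (-0.20 to 0.093) and, at smaller sizes, from Pcdhb19 to Pcdhb22 (-0.020 to 0.042). This grouping was noticed after the values were seen, and whether fragments were exchanged between similar genes was not tested.

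Markers of the oligodendrocyte lineage, in whose precursors Pcdh15 is expressed, were mostly lower, by smaller amounts. Of the 9 compared, 7 were lower and 2 higher, where 54.7% of all genes compared were lower. The list summed to 234 FPKM in the AAV-Gata1 library and 249 FPKM in the AAV-Control library, and none of its 10 genes was at 0. Gpr17, a receptor of committed precursors, stood at 12.6 FPKM with Gata1 and 15.2 FPKM with the control virus. Sox10, a lineage transcription factor, stood at 7.12 FPKM with Gata1 and 8.54 FPKM with the control virus, and Olig2, another, at 33.8 FPKM with Gata1 and 38.3 FPKM with the control virus. Their log2 ratios (-0.25, -0.23 and -0.17) were nearer 0 than that of Pcdh15. Pdgfra, the growth factor receptor of precursors, stood at 22.4 FPKM with Gata1 and 24.1 FPKM with the control virus, while Cspg4 (3.74 FPKM with Gata1, 3.67 FPKM with the control virus) and the myelin gene Mbp (38.5 FPKM with Gata1, 37.8 FPKM with the control virus) were slightly higher. Mog, under the minimum mean of 1 FPKM, was also slightly higher, at 0.798 FPKM with Gata1 and 0.762 FPKM with the control virus. The median log2 ratio of the 9 markers compared was -0.075, beside -0.013 over all genes. The part of the lineage in the Pcdh15 value was not tested.

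**Figure D4:**
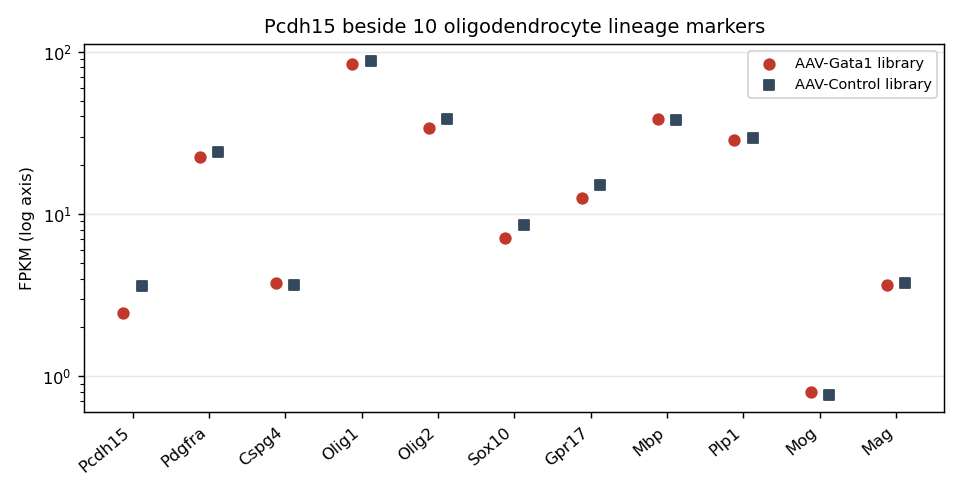
FPKM (log axis) of Pcdh15 and of 10 oligodendrocyte lineage markers in the AAV-Gata1 (circle) and AAV-Control (square) library, 1 library each. The gap of Pcdh15 (2.46 FPKM with Gata1, 3.59 FPKM with the control virus) is wider than that of Gpr17 (12.6 FPKM with Gata1, 15.2 FPKM with the control virus), the widest among the markers.

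Genes that set clustered promoter choice differed little between the libraries. Promoter use in the clusters depends on the insulator protein CTCF and the cohesin ring, and on DNA methylation and SMCHD1 for silencing. Ctcf stood at 33.2 FPKM in the AAV-Gata1 library and 33.4 FPKM in the AAV-Control library, and the cohesin subunit gene Rad21 at 72.9 FPKM with Gata1 and 69.0 FPKM with the control virus. Smchd1 stood at 15.6 FPKM with Gata1 and 14.3 FPKM with the control virus, and Dnmt3b, the methyltransferase that marks these promoters in the embryo, at 0.708 FPKM with Gata1 and 0.670 FPKM with the control virus. These 4 were picked for their roles. Of 24 genes of this list compared, 15 were lower and 9 higher, at a median of -0.024, where 54.7% of all genes were lower at a median of -0.013. None was past 1.2-fold, as 3.29% of all genes were on the higher and 3.98% on the lower side. Among the larger differences were those of Wapal, which releases cohesin (15.0 FPKM with Gata1, 17.3 FPKM with the control virus), and of the alternative cohesin subunit genes Stag1 (19.3 FPKM with Gata1, 17.7 FPKM with the control virus) and Stag2 (43.4 FPKM with Gata1, 47.1 FPKM with the control virus).

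Intracellular partners of protocadherins also differed little. Clustered protocadherins inhibit the kinases encoded by Ptk2 and Ptk2b, and several delta members bind the WAVE complex, which drives actin branching. Ptk2 stood at 23.9 FPKM with Gata1 and 24.8 FPKM with the control virus, and Nckap1, a WAVE subunit gene, at 104 FPKM with Gata1 and 108 FPKM with the control virus, both picked for their roles. Of 24 partner genes compared, 17 were lower and 7 higher (median -0.048), beside 54.7% lower and a median of -0.013 over all genes. None was past 1.2-fold, beside 3.29% of all genes higher and 3.98% lower by that much. Among the larger differences were those of Wasf1, a WAVE subunit gene (43.6 FPKM with Gata1, 47.5 FPKM with the control virus), and Prkcb, a kinase gene (24.0 FPKM with Gata1, 26.2 FPKM with the control virus).

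Of a chosen list of 36 other cadherin superfamily genes, 23 could be compared. In the AAV-Gata1 library 19 of them were lower and 4 higher, at a median of -0.065, beside 54.7% lower and a median of -0.013 over all genes. None was higher and 1 was lower by 1.2-fold or more, a share near the 3.98% of all genes. That was Cdh18, a classical cadherin gene, at 1.26 FPKM with Gata1 and 1.98 FPKM with the control virus (-0.40), a log2 ratio close to that of Pcdh15 at a lower level. Clstn3, a calsyntenin of synapses, stood at 20.3 FPKM with Gata1 and 23.4 FPKM with the control virus. Fat3 stood at 2.60 FPKM with Gata1 and 2.94 FPKM with the control virus, and Celsr2 at 23.6 FPKM with Gata1 and 25.7 FPKM with the control virus. No difference between the protocadherins and these lists was tested.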

How the data were processed

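The authors deposited 1 table of FPKM values per mRNA library, per the file headers. Libraries were made with a stranded kit, per the labels' protocols. Per the submitters' processing notes, which give no roles, Cuffdiff 2.1.1, TopHat2 2.1.1 and Cufflinks 2.1.1 were used, and builds mm9 and mm10 are both named. Annotation, the strand setting of the quantification and scaling between libraries are not given in the sources used here. Sequencing depth is unknown, so no counting interval is given. Each table held 40993 rows, of which 6 without a symbol were left out, and the highest row by mean was kept per symbol (each protocadherin had 1). Names, gene order and promoter windows came from RefSeq GRCm38.p6, which matched all 36 members. Ratios used a pseudocount of 1 FPKM and a minimum mean of 1 FPKM, in Python 3.11.15 with pandas 2.3.3 and numpy 2.4.6, and the counting was tested on simulated data. With 1 library per group no test was run. Named genes were all nonclustered members, the alpha and gamma rows, the 5 highest and the lowest beta genes, the 5 largest differences each way and up to 4 genes of each other list (some that the rule names are not reported here); others are said to be chosen for their role or after their values were seen, or stand as neighbours in the beta array. Members, lists and tests were chosen with earlier results of these data known. Alternatives tried were a pseudocount of 0.1 FPKM, no minimum mean, a minimum mean of 5 FPKM, summed rows, centring on the median gene, means in place of medians, and sums without the highest member.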

Additional observations from a re-analysis of the deposited data

How the results depend on the processing

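Of 111 recomputed counts, medians and sums, 103 stayed within the limits set for an unchanged result. These limits were a count within 1.5 times, or still 0, and a log2 value within 0.05 that kept its sign. Log2 values other than means and sums also had to stay on their side of 1.2-fold. The 111 include results that could not move or hardly could. Each protocadherin had 1 row, so summed rows could change nothing, and counts past 2-fold were 0 under every setting. Pcdh15, the only member past 1.2-fold, kept its sign wherever it was recomputed. With a minimum mean of 5 FPKM, which leaves 11 members, 1 was higher and 10 were lower; among beta genes 1 was higher and 2 were lower, among nonclustered genes 0 were higher, and with Pcdh15 left out 0 members were past 1.2-fold lower, over all members and over the nonclustered genes. With no minimum mean 2 nonclustered genes were higher, the second being Pcdh12. Setting the all-gene median of -0.013 to 0 turned Pcdhb2 from -0.0078 to 0.00020. A pseudocount of 0.1 FPKM moved 7 single members by 0.05 or more and changed no count past the limits. No replicate could be left out, and the unknown depth gives no limit for low members such as Pcdh12.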
